A study of Mus musculus with 8 samples.

Results

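The SLAM family receptors and their SAP adaptors are 9 genes chosen by symbol: the receptor genes Slamf1, Slamf6, Slamf7, Ly9, Cd84, Cd48 and Cd244a, and the adaptor genes Sh2d1a and Sh2d1b1. All 9 were among the 17384 genes of the deposited table, and 8 had enough reads to be tested, Sh2d1b1 being the exception. RNA was sequenced from B220+CD3+ cells sorted from mouse spleen, in a study of apoptosis signalling. The 4 libraries titled Faslpr came from mice with the lpr allele of the death receptor gene Fas, and the 4 titled EAF2Faslpr came from Eaf2-/-Faslpr mice, which carry the same Fas allele and also lack Eaf2, the gene of a factor that associates with the ELL transcription elongation proteins. Both groups thus share the lpr defect, and neither is a wild-type control. No strain, age, sex or number of animals per library is stated in the labels. Since nothing says that the libraries of a group came from separate animals, a p-value here reflects only library-to-library spread, which could be technical.

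SLAM receptors are immunoglobulin superfamily proteins on lymphocytes and other blood cells. Most of them bind a copy of themselves on a neighbouring cell, whereas CD244 binds CD48, which is tethered by a lipid anchor and has no cytoplasmic tail of its own. Tyrosine motifs in the tails of the others recruit SAP and EAT-2, small adaptors that are little more than an SH2 domain. SAP brings in the kinase FYN, and where the adaptors are missing the same motifs can engage the inhibitory phosphatases SHP-1, SHP-2 and SHIP. T cells need SAP to help B cells in germinal centres and to form natural killer T cells, and in mice the receptor cluster on chromosome 1 lies in an interval linked to lupus, where inbred strains carry different haplotypes.

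Eaf2 was measured first as a check of the labels. It stood at 4.74 ± 1.04 CPM in EAF2Faslpr and 25.5 ± 4.50 CPM in Faslpr libraries (SD, n = 4 each), where CPM is the number of estimated reads per megaread of tested genes after TMM scaling. No library of one group overlapped the other (exact two-sided permutation test over 70 orderings, p = 0.0286, the smallest it allows). The log2 fold change was −2.43 (SE 0.18), and some Eaf2 reads remained in every EAF2Faslpr library. Depth ran from 15.6 to 18.6 megareads (estimated) per library, and the 9 genes together held between 0.251% and 0.305% of them. B cell markers were higher in EAF2Faslpr, where the summed level of 13 such genes ran from 369 to 720 CPM (404 at most without EAF2Faslpr replicate 3) against 98.1 to 164 CPM in Faslpr. All 13 of these markers passed the test and rose, with a median log2 fold change of 2.11. That pattern stands beside every comparison that follows, since B cells also express several SLAM receptors, and its part in those results was not tested. In a sorted bulk sample, fewer cells of a type and less RNA per cell cannot be told apart.

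Transcripts of 6 of the 7 receptors and of SAP were readily measured in these cells. Cd244a was low, at 16.99 to 66.14 estimated reads per library, and Sh2d1b1 was close to undetected, at 2 to 7. Levels of different genes are compared here on the deposited FPKM scale, which is per length. Slamf7, the gene of CRACC (CS1), was highest in both groups, at 410.37 ± 14.9 FPKM in Faslpr (place 133 of the 17384 genes by group mean) and 320.42 ± 29.4 FPKM in EAF2Faslpr (place 164). Slamf6, which encodes Ly108, followed at 268 ± 26.3 and 294 ± 22.3 FPKM, and Cd48, the ligand of CD244 and CD2, at 261 ± 24.0 and 248 ± 24.9 FPKM. Sh2d1a, the SAP gene, stood at 168 ± 13.1 and 174 ± 12.5 FPKM, Cd84 at 119 ± 18.4 and 128 ± 4.87 FPKM, and Ly9, which encodes CD229, at 84.7 ± 4.79 and 96.1 ± 0.577 FPKM (Faslpr first, SD, n = 4). Slamf1, the founding member CD150, was much lower at 15.6 ± 2.23 and 19.8 ± 2.81 FPKM. Cd244a stood at 0.36 ± 0.156 and 0.788 ± 0.284 FPKM, and Sh2d1b1, the EAT-2 gene, at 0.09 ± 0.0408 and 0.108 ± 0.0512 FPKM.

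The order of the 9 genes was the same in both groups. Ranges over libraries overlapped between Slamf6 and Cd48 in each group, and between Slamf7 and Slamf6 in EAF2Faslpr only. Within single libraries Slamf6 was above Cd48 in 4 of 4 EAF2Faslpr and 3 of 4 Faslpr libraries. In Faslpr the lowest Slamf7 library, at 400.34 FPKM, lay above the highest Slamf6 library, at 292 FPKM. In EAF2Faslpr the lowest Slamf7 library, at 284 FPKM, lay below the highest Slamf6 library, at 319 FPKM, although Slamf7 exceeded Slamf6 within each of the 4 libraries. All other neighbours in the order were apart in both groups. The plot of level per length shows the step from Ly9 to Slamf1 and the larger one from Slamf1 to Cd244a.

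**Figure D1:**
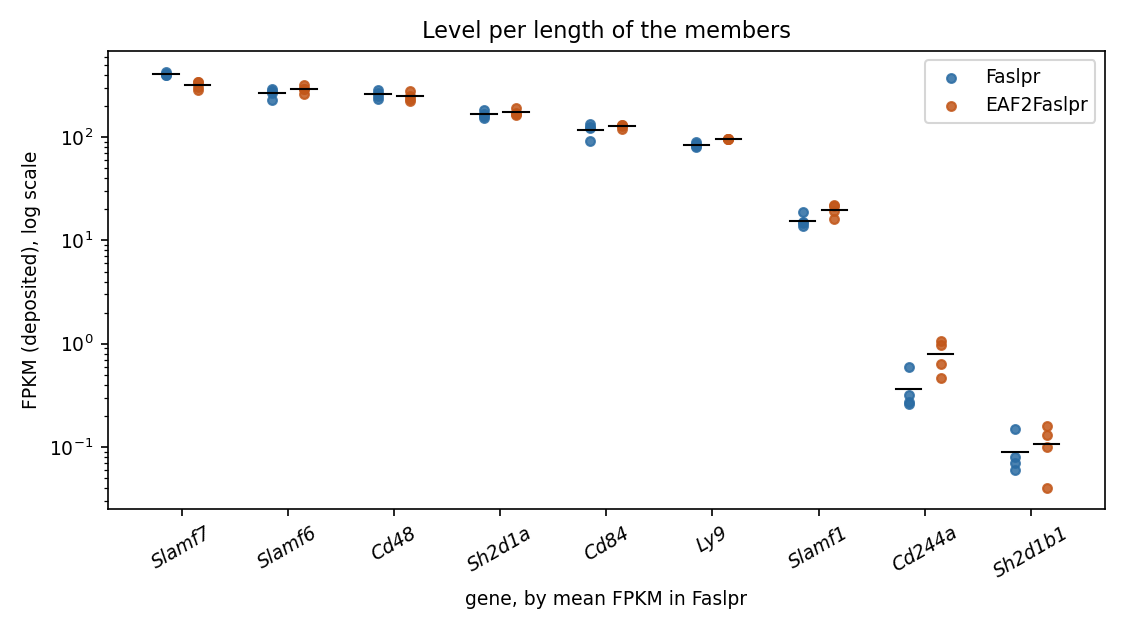
Deposited FPKM of each member on a log axis, with 1 point per library (blue Faslpr, orange EAF2Faslpr) and a black bar at the mean of 4. Genes run from Slamf7, at 284 FPKM or more in every library, down to Sh2d1b1, at 0.16 FPKM or less in every library.

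Of the 8 tested members, Slamf7 passed the test and fell in EAF2Faslpr, and none rose. The threshold was an adjusted p of 0.05 in edgeR's quasi-likelihood test over all 12340 genes tested, of which 4.96% were called lower, 7.14% higher and 12.1% in either direction. The single call among 8 genes is a share close to that background. At an unadjusted p under 0.05 the same tool had 2 members higher, Ly9 and Cd244a, and 1 lower, beside 24.9% of all genes tested at that cut in either direction. DESeq2 called 1 member higher, Cd244a, and limma-voom called 0, and both called Slamf7 lower. The median log2 fold change of the tested members was 0.13 and that of all genes tested −0.01.

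**Figure D2:**
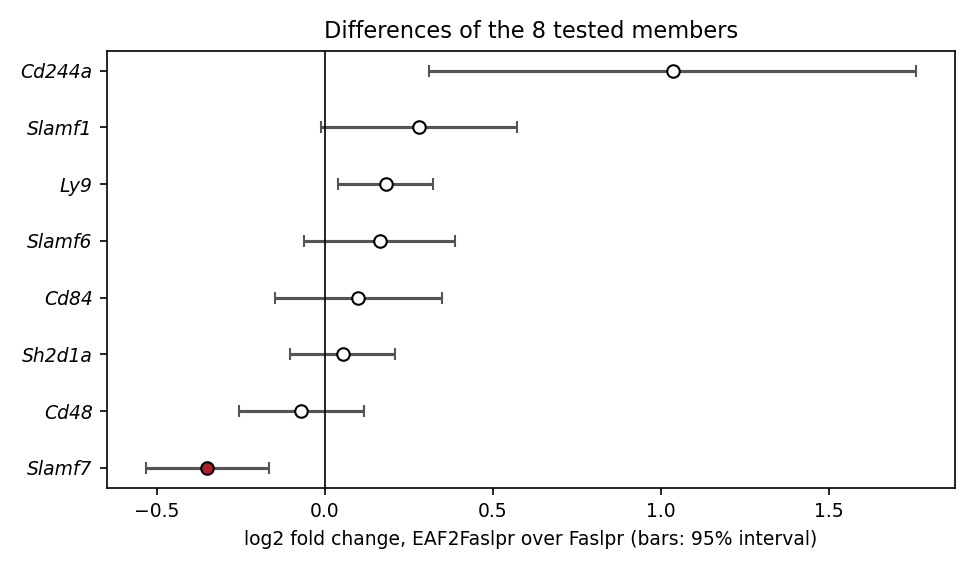
Log2 fold change of the 8 tested members, EAF2Faslpr over Faslpr, with bars for the 95% interval; a filled point passed at an adjusted p under 0.05. Slamf7, at −0.35, is the one filled point, and Cd244a, at 1.04, has the widest interval.

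Slamf7 (gene number 75345) is a self-binding receptor that activates natural killer cells through EAT-2 and is also found on activated T cells and plasma cells. Its level was 984, 1186, 1059.99 and 1197 CPM in EAF2Faslpr replicates 1 to 4 and 1523, 1372, 1382 and 1364 CPM in Faslpr replicates 1 to 4. Every EAF2Faslpr library was below every Faslpr library. Group ranges did not overlap, in either direction, for 17.7% of all genes tested. The means were 1107 ± 103 and 1410.03 ± 75.5 CPM (SD, n = 4 each), a 1.27-fold lower level in EAF2Faslpr with a log2 fold change of −0.35 (SE 0.08, 95% interval −0.53 to −0.17). The adjusted p was 0.0203, and Slamf7 stood at place 986 of 12340 by p. The call sat close to the threshold: it was lost without EAF2Faslpr replicate 3 (log2 fold change −0.33, adjusted p = 0.0537) and without Faslpr replicate 1, the highest library (−0.31, adjusted p = 0.0553).

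The stretch around the start of Slamf7 is shown because Slamf7 was the member that passed, and that of Cd244a because its fold difference was the largest. Both are from RefSeq on GRCm38.p6, not the GRCm39 build named for the deposited values, and run 5′ to 3′ on the gene's strand from 250 bases before to 50 bases after an annotated start. The Slamf7 stretch is chr1:171648950-171649249 on the minus strand and that of Cd244a is chr1:171558943-171559242 on the plus strand. Capitals mark matches to TGANTCA, the letters of an AP-1 site, which read the same on both strands.
Slamf7: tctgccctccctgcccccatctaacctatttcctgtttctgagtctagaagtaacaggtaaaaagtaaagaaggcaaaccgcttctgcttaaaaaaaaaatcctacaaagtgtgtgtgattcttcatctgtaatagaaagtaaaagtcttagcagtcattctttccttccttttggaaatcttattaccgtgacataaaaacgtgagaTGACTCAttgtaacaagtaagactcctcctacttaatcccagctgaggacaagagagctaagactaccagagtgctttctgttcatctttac
Cd244a: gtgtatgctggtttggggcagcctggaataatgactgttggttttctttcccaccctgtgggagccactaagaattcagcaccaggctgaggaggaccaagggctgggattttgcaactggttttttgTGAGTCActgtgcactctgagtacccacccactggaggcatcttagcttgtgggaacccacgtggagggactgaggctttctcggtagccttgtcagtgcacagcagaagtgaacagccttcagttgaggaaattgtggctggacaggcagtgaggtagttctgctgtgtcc
The match began 42 bases before the start in Slamf7 and 122 bases before it in Cd244a. Among the 7 members with an entry in the table, Cd84 and Sh2d1b1 also held a match, as did 7.81% of the 32851 stretches in it. The RUNX letters TGTGGT were found on either strand in Cd48, Cd84 and Sh2d1b1 (16.8% of all stretches), and the TCF and LEF letters TCAAAG in Cd48 (16.0%). The STAT letters TTCNNNGAA (8.3%) and an NF-kB motif (1.63%) were in none of the 7. A match here is a string of letters and not a measured site, and its part in the level of any member was not tested.

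Cd244a (gene number 18106) encodes CD244, also called 2B4, which is typical of natural killer and cytotoxic T cells and binds CD48. It had 49.21, 42.23, 66.14 and 31.99 estimated reads in EAF2Faslpr replicates 1 to 4 and 16.99, 19.98, 18.26 and 39.4 in Faslpr replicates 1 to 4. Faslpr replicate 4 was above EAF2Faslpr replicate 4, so the groups overlapped, and the other 3 Faslpr libraries were below every EAF2Faslpr library. On the CPM scale the means were 2.72 ± 0.843 and 1.32 ± 0.54, a log2 fold change of 1.04 (SE 0.33, 95% interval 0.31 to 1.76), with an adjusted p of 0.0683. The call depended on the setting: DESeq2 gave an adjusted p of 0.0410, and edgeR without Faslpr replicate 4 gave a log2 fold change of 1.36 and an adjusted p of 0.0227. Of 8 natural killer markers, Klra8 and Klra4 were at 0 reads in every EAF2Faslpr library. That allows up to 0.193 CPM in the shallowest one (3 reads, counting error only). In Faslpr they averaged 0.0574 and 0.0730 CPM, too few reads to show a difference between the groups. Ncr1 averaged 0.589 ± 0.425 CPM in EAF2Faslpr against 0.0968 ± 0.0932 CPM in Faslpr. Gzma and Klrd1 rose (log2 fold change 2.02 and 1.5, adjusted p = 0.0204 and 0.0371), from 0.92 and 1.36 CPM in Faslpr, and each lost its call in some of the 8 fits without 1 library: Gzma without EAF2Faslpr replicate 3 or Faslpr replicates 1 or 2, and Klrd1 without EAF2Faslpr replicates 1 or 3 or Faslpr replicates 1, 2 or 3 (highest adjusted p 0.0669 for Gzma and 0.103 for Klrd1). The most abundant marker of that list, the T-box factor gene Eomes, was at 1540.1 ± 113 against 1794 ± 137 CPM and did not pass, and it made up most of the list's summed level of 1435 to 1675 CPM in EAF2Faslpr and 1652 to 1980.4 CPM in Faslpr. The part of natural killer cells in the Cd244a values was not tested.

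Ly9 (gene number 17085) encodes CD229, a self-binding receptor of T and B cells. It was measured at 229, 228, 222 and 229.6 CPM in EAF2Faslpr replicates 1 to 4 and 206, 189, 214 and 191 CPM in Faslpr replicates 1 to 4. Every EAF2Faslpr library was above every Faslpr library, where 17.7% of all genes tested had group ranges that do not overlap, in either direction. The means were 227 ± 3.52 and 200.2 ± 11.9 CPM. The log2 fold change of 0.18 (SE 0.06, 95% interval 0.04 to 0.32) did not pass, with an adjusted p of 0.1 by edgeR and between 0.0514 and 0.254 over 16 alternative settings. The 4 EAF2Faslpr libraries lay within a coefficient of variation of 1.55%, where counting error alone gives 1.59%, against 5.94% among the Faslpr libraries.

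Cd84 (gene number 12523) and Slamf6 (gene number 30925) encode self-binding receptors that support contact between T and B cells in follicles. Cd84 was at 314, 325, 334 and 337 CPM in EAF2Faslpr replicates 1 to 4 and at 332, 315, 343 and 232 CPM in Faslpr replicates 1 to 4. Faslpr replicate 4 alone was low, and the other 3 Faslpr libraries lay among or just above the EAF2Faslpr libraries. The means of 328 ± 10.3 and 306 ± 50.5 CPM gave a log2 fold change of 0.10 (adjusted p = 0.652), and without Faslpr replicate 4 it was −0.01. Slamf6 ranged from 550.4 to 672 CPM in EAF2Faslpr and from 448 to 608 CPM in Faslpr, again with Faslpr replicate 4 the lowest, and its log2 fold change of 0.16 did not pass (SE 0.10, 95% interval −0.06 to 0.39, adjusted p = 0.361). The same library had the highest Cd48 and Cd244a levels of its group.

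Slamf1 (gene number 27218), whose receptor is self-binding and also serves as an entry receptor for measles virus in humans, ranged from 28.3 to 39.3 CPM in EAF2Faslpr and from 24.1 to 34.4 CPM in Faslpr. Its log2 fold change was 0.28 (SE 0.13, 95% interval −0.01 to 0.57) with an adjusted p of 0.217, and EAF2Faslpr replicate 1 was as low as Faslpr replicate 4. Cd48 (gene number 12506) ranged from 252 to 305 CPM in EAF2Faslpr and from 262 to 315 CPM in Faslpr, with a log2 fold change of −0.07 (95% interval −0.25 to 0.12, adjusted p = 0.677). For neither gene were the groups apart.

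**Figure D3:**
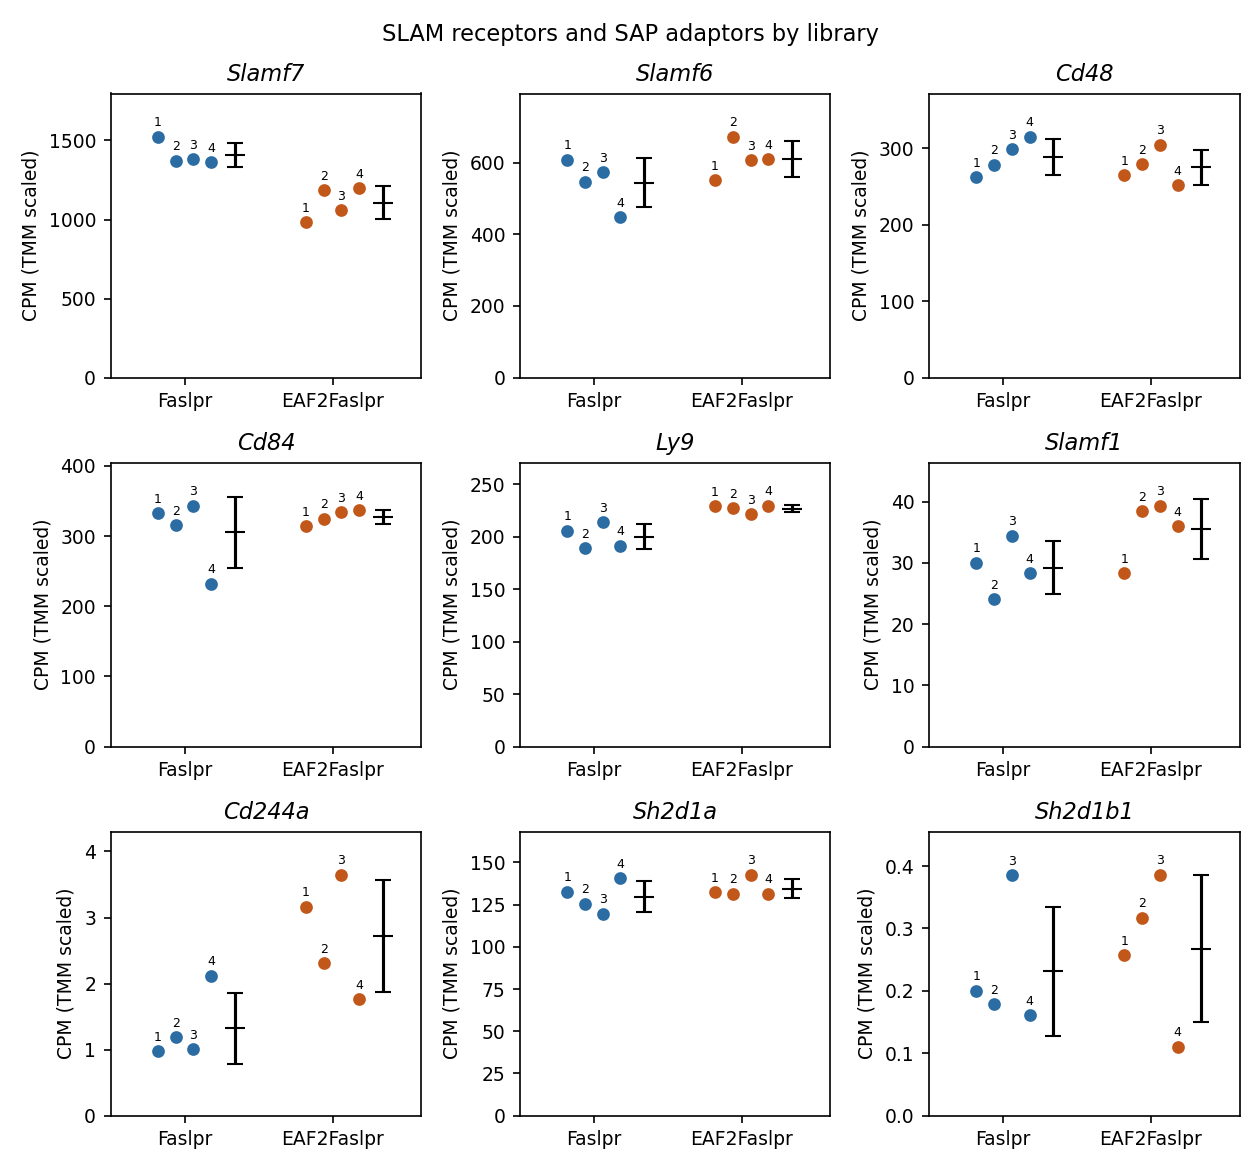
TMM-scaled CPM of each member by library, numbered by replicate, with the mean and SD of 4 in black; every vertical axis starts at 0. Slamf7 and Ly9 have groups that do not overlap, as do 17.7% of all genes tested. Faslpr replicate 4 is the low point of Cd84 at 232 CPM.

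Among the adaptors, Sh2d1a (gene number 20400) lies on chromosome X and encodes SAP. It was at 132, 132, 143 and 131 CPM in EAF2Faslpr replicates 1 to 4 and at 133, 125, 119.6 and 141 CPM in Faslpr replicates 1 to 4. Faslpr replicates 2 and 3 were below every EAF2Faslpr library and the groups overlapped, and the log2 fold change was 0.05 (SE 0.07, 95% interval −0.10 to 0.21, adjusted p = 0.706). The Y-linked gene Eif2s3y had at least 243 estimated reads in every library of both groups. Sh2d1b1 (gene number 26904), the EAT-2 adaptor gene of natural killer and dendritic cells, had 4, 5.81, 7 and 2 estimated reads in EAF2Faslpr replicates 1 to 4 and 3.49, 3, 7 and 3 in Faslpr replicates 1 to 4. With so few reads no difference was detectable at this depth, and the gene was left out of the test. Slamf7 transcript was thus abundant in libraries where the adaptor gene best known for its signal was almost unread.

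The receptors differed in their share of the family's transcript. Slamf7 made up 33.8% to 36.5% of the summed receptor FPKM in Faslpr libraries and 27.2% to 31.2% in EAF2Faslpr libraries. Slamf6 made up 20.8% to 24.6% and 25.99% to 27.5% in the same order, and Ly9 7.01% to 7.54% and 8.25% to 9.45%. Cd84 (8.27% to 11.16% and 11.25% to 11.86%) and Slamf1 (1.202% to 1.564% and 1.573% to 1.956%) were also apart. The shares of Cd48 and Cd244a overlapped between the groups. These shares sum to a whole, so a lower Slamf7 share raises the others. The ratio of Slamf7 to Slamf6 was 1.54 ± 0.129 in Faslpr and 1.09 ± 0.0565 in EAF2Faslpr, with no overlap between 1.44 and 1.17. That ratio contains Slamf7, the member that passed, so it is not a separate result. How often ratios of other gene pairs are apart was not measured. The summed receptor level itself was 1159 ± 41.6 against 1106 ± 62.5 FPKM (Faslpr first), and 748 ± 35.2 against 786 ± 45.3 FPKM without Slamf7. SAP transcript amounted to 14.5% ± 1.57 of the summed receptor FPKM in Faslpr and 15.8% ± 1.22 in EAF2Faslpr.

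**Figure D4:**
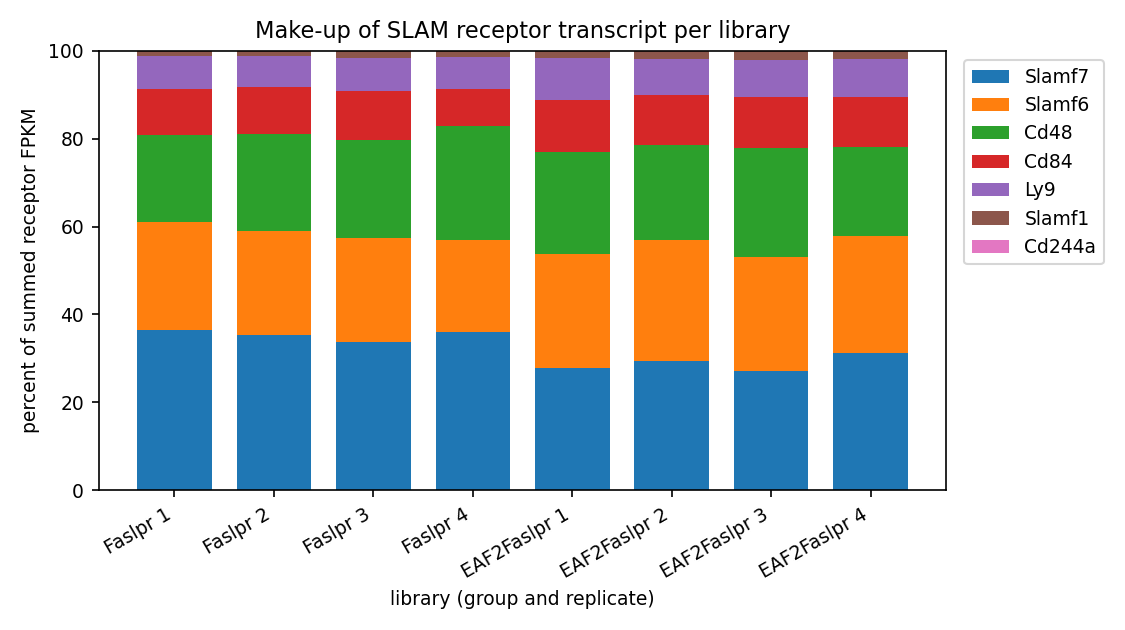
Each bar splits the summed FPKM of the 7 receptors of 1 library into percent per receptor, Faslpr on the left and EAF2Faslpr on the right. The Slamf7 segment is at least 33.8% in the Faslpr libraries and at most 31.2% in the EAF2Faslpr libraries.

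The lengths implied by the deposited values gave a further readout. The ratio of estimated count to FPKM, scaled in each library to its median over 8123 well-read genes, is proportional to the effective length the authors' estimate used, and 7 members had enough reads. For Slamf6, whose gene is known for alternative Ly108 tails, it ran from 100.6% to 102.9% of the gene's mean in EAF2Faslpr and from 94.98% to 100.1% in Faslpr. The Slamf6 ranges did not overlap, as for 4.0% of the genes measured, and Faslpr replicate 4 was the lowest. The other 6 overlapped between groups. Which transcripts were used was not measured here.

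CD2, the other receptor for CD48 and a close relative of the SLAM family, differed between the groups where Cd48 did not pass. Cd2 was at 62.9, 38.3, 43.4 and 35.7 CPM in EAF2Faslpr replicates 1 to 4 and at 19.5, 18.1, 23.3 and 25.9 CPM in Faslpr replicates 1 to 4. The groups did not overlap, and Cd2 rose with a log2 fold change of 1.05 (adjusted p = 0.00455). Per length, Cd48 exceeded Cd2 by 13.4 ± 1.32 times in Faslpr and by 6.29 ± 1.46 times in EAF2Faslpr, where EAF2Faslpr replicate 1 had the lowest ratio, at 4.11. The remaining relatives were barely read: Slamf8 averaged 0.259 and 0.178 CPM, Slamf9 0.184 and 0.209 CPM (EAF2Faslpr first), and Sh2d1b2, a copy of the EAT-2 gene, stayed under 3 estimated reads in every library.

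Of 18 signalling partners of the family, all tested, 3 rose and none fell by edgeR, beside 12.1% called among all genes; at an unadjusted p under 0.05 there were 4 higher and 2 lower, beside 24.9% of all genes, and DESeq2 called 4 higher and 0 lower. Ptpn6, which encodes SHP-1, rose from 40.1 ± 8.93 to 86.1 ± 12 CPM (log2 fold change 1.10, adjusted p = 0.00168). Plcg2, the phospholipase typical of B and natural killer cells, rose from 6.52 ± 2.09 to 16.6 ± 2.74 CPM (1.35, adjusted p = 0.00276), and Plcg1, its T cell relative, from 197 ± 14.3 to 237 ± 13.6 CPM (0.26, adjusted p = 0.0437). Plcg1 lost its call in 7 of 8 fits without 1 library, all but the one without Faslpr replicate 3 (adjusted p up to 0.130). Ptpn6 and Plcg2 kept theirs in all 8. The B cell markers named above moved with them (summed level 369 to 720 against 98.1 to 164 CPM), and their part was not tested. Fyn, the kinase that SAP recruits, had the highest mean CPM of the list over all 8 libraries (Lck was higher in EAF2Faslpr), at 1115 ± 92.7 CPM in EAF2Faslpr and 1285 ± 96.7 CPM in Faslpr, which was short of the threshold (−0.20 on the log2 scale, with an adjusted p of 0.157). The kinase gene Lck did not pass (−0.03, adjusted p = 0.891), nor did Ptpn11 and Inpp5d, the genes of SHP-2 and SHIP, with log2 fold changes of 0.01 and −0.02.

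Genes of programmes that depend on SLAM receptors and SAP moved in both directions. Of 9, 7 were tested, and 3 rose and 2 fell, where 7.14% of all genes tested were called higher and 4.96% lower. Cxcr5, the chemokine receptor of follicles, fell from 364 ± 19.7 to 239.7 ± 22.3 CPM (adjusted p = 0.00114) and Pdcd1, the PD-1 gene, from 179 to 119 CPM (adjusted p = 0.00125). Gata3, a transcription factor of T helper cells, rose from 1.85 to 5.52 CPM (adjusted p = 0.00234). Cd1d1, which presents lipids to natural killer T cells, rose from 15.5 to 28.1 CPM (adjusted p = 0.0213) and lost its call when either Faslpr replicate 1 or Faslpr replicate 2 was left out (highest adjusted p 0.0581). The helper cytokine gene Il21 rose from 0.797 ± 0.59 to 8.23 ± 10.9 CPM (adjusted p = 0.0404) with overlapping groups. Its EAF2Faslpr libraries ran from 1.27 to 24.5 CPM, and it lost its call without EAF2Faslpr replicates 1 or 4 or Faslpr replicates 1, 2 or 4 (highest adjusted p 0.111, log2 fold change 1.81 to 3.89 over the 8 fits without 1 library). Zbtb16, the defining factor of natural killer T cells, averaged 0.391 and 0.402 CPM and was not tested.

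Genes around the receptor cluster were called at a share near that of all genes tested. Of the 9 members, 8 lie on chromosome 1 and stand there in the order Sh2d1b1, Cd244a, Ly9, Slamf7, Cd48, Slamf1, Cd84 and Slamf6 on GRCm38.p6. Of 38 other tested genes within 1 megabase of that span, 2 rose and 1 fell, 7.89% of them against 12.1% of all genes tested, with a median log2 fold change of −0.04. The 2 that rose were Fcgr2b, an inhibitory antibody receptor, which stood at 5.95 ± 2.63 CPM in EAF2Faslpr and 1.61 ± 0.442 CPM in Faslpr (a log2 difference of 1.87 with an adjusted p of 0.00387), and Fcrla, an Fc receptor-like gene of B cells that is also in the B cell list (1.78, adjusted p = 0.00774). Arhgap30, the most read of these neighbours, was at 493 ± 18.3 against 463 ± 35.2 CPM and did not pass. Slamf7 lay between Ly9 and Cd48, which did not pass (log2 fold change 0.18 and −0.07, the 95% interval of Cd48 running from −0.25 to 0.12).

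**Figure D5:**
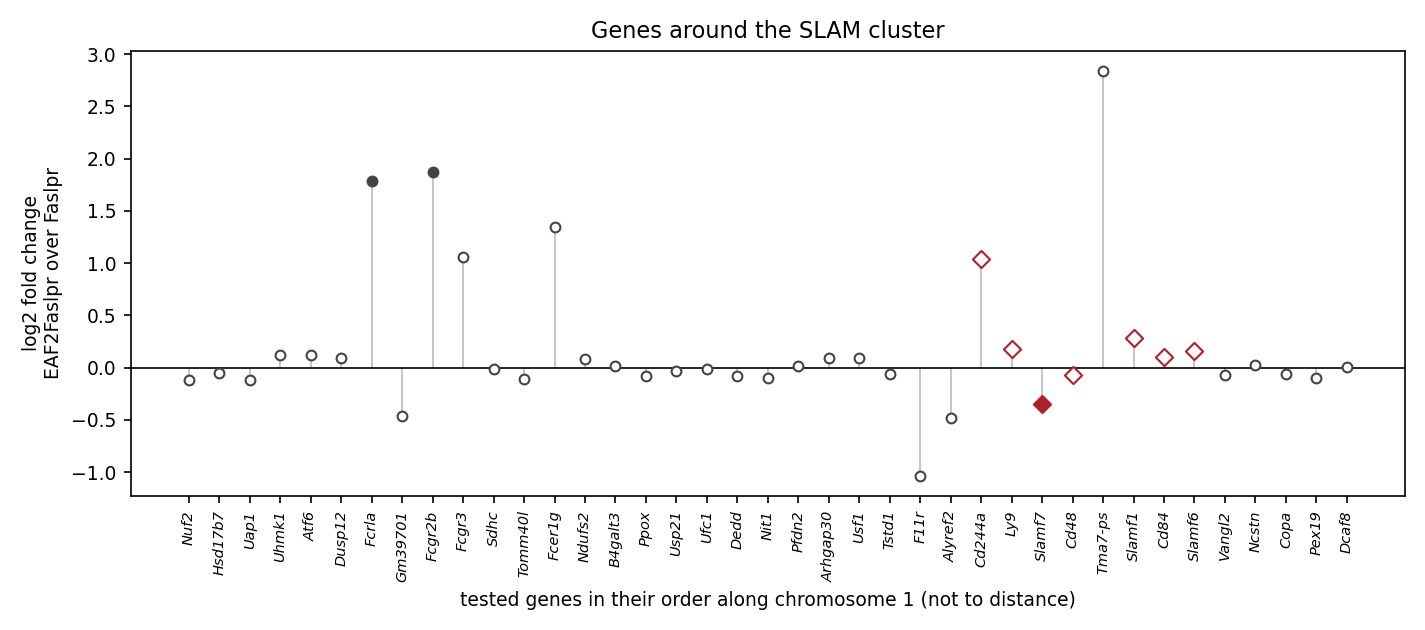
Log2 fold change, EAF2Faslpr over Faslpr, of tested genes in their order along chromosome 1, drawn up to the fifth gene past Slamf6; diamonds are members, circles are neighbours and filled points passed at an adjusted p under 0.05. Slamf7 is the filled diamond at −0.35, and Fcrla, at 1.78, and Fcgr2b, at 1.87, are the highest filled circles.

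The genes whose levels followed each member most closely across the 8 libraries, once each group's mean was taken off, are given as a description. They rest on the same libraries, so depth and any shared handling enter both sides. For Slamf7 they were Stk40 (Pearson r 0.98), Map3k3 (0.95) and Gucy2e (0.94), and for Ly9 they included Ccdc6 and Atp6v0a2 (0.97 each). For Slamf6 they were Retreg1 (0.98), Mindy2 and Rassf5 (0.97 each), and for Cd84 Ubxn7, D5Ertd579e and Tmem245 (0.99 each). Cd48 was nearest to Ggact (0.99), Yipf2 (0.97) and Alg12 (0.96), Slamf1 to Ndufa9 (0.97), Smap2 and Poc1b (0.96 each), Cd244a to Atp5k, Polr1d and Ndufb5 (0.98 each), and Sh2d1a to Ormdl2 (0.99), Hspbp1 and Bax (0.98 each). These are from the top 3 of 9593 or 9594 genes over 8 libraries for each member. Such a pick gives high values even among unrelated genes, and how high was not measured. Among the members themselves, Slamf6 and Cd84 were the most alike (0.85), both with Faslpr replicate 4 lowest in its group, and Slamf6 and Cd244a the least (−0.77).

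The sorted phenotype and other cell types were checked in the same libraries. Cd3e (557 ± 39.3 against 602 ± 53.0 CPM) and Ptprc, the gene of CD45 and B220 (2312 ± 114 against 1989 ± 311 CPM), were abundant in both groups and did not pass. Cd4 and Cd8a rose (log2 fold change 1.44 and 1.87, adjusted p = 0.00771 and 0.00456 by edgeR). Cd4 went from 36.3 ± 14.0 CPM in Faslpr to 98.4 ± 31.7 CPM in EAF2Faslpr, and Cd8a from 5.65 ± 2.63 to 20.7 ± 5.30 CPM. The part of that difference in the other results was not tested. Of 7 T cell markers 1 rose, Cd2, and Cd5 did not pass, with summed levels of 1993 to 2218 CPM in EAF2Faslpr and 2015 to 2122 CPM in Faslpr. The B cell markers Pax5 and Cd22 rose (2.54 and 2.0), as did Spib, the most abundant of that list over all 8 libraries (0.71, lost in 6 of 8 fits without 1 library, all but those without EAF2Faslpr replicate 1 or Faslpr replicate 4, with an adjusted p up to 0.101). Of 7 tested macrophage and monocyte markers 3 rose, among them Cybb and Ctss (1.45 and 0.54), and the summed level was 150.02 to 275 against 108 to 134 CPM. Of 4 tested neutrophil markers (Cxcr2, Ngp and S100a8 among them) edgeR called 0, with 3 higher at an unadjusted p under 0.05, DESeq2 called 1 higher and limma-voom 0, and the list summed to 99.9 CPM in EAF2Faslpr replicate 3 and to at most 18.6 CPM elsewhere. Of 4 tested dendritic cell markers (Tcf4 and Itgax the most abundant) edgeR, DESeq2 and limma-voom called 0, with 0 at an unadjusted p under 0.05 and summed levels of 64.1 to 76.1 against 65.4 to 75.9 CPM. Of 6 tested antibody-secreting cell markers 1 fell, Xbp1 (−0.48, adjusted p = 0.00497), and Sdc1 was at 365 ± 31.8 against 439 ± 43.9 CPM. The summed level of that list was 687 to 846 CPM in EAF2Faslpr and 857 to 976 CPM in Faslpr, in the direction of Slamf7. Sdc1 and Xbp1 made up most of that sum. Jchain (55.7 and 45.8 CPM) and Mzb1 (14.7 and 13.3 CPM) were lower in Faslpr replicates 1 and 2 than in every EAF2Faslpr library. In Faslpr replicates 3 and 4 both were higher than in every EAF2Faslpr library. Irf4 alone of the list had a higher mean in EAF2Faslpr (72.2 ± 29.8 against 58.0 ± 11.4 CPM). The part of antibody-secreting cells in the Slamf7 values was not tested.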

How the data were processed

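RNA from B220+CD3+ spleen cells was sequenced in 4 EAF2Faslpr and 4 Faslpr libraries, grouped by their titles. The authors deposited estimated counts per gene, of the kind RSEM makes, and the authors also deposited FPKM, which are scaled to depth and effective length. HISAT2 2.2.1, Bowtie2 2.4.5, RSEM 1.3.1 and GRCm39 are named in the submitters' processing notes. The members and lists were chosen with earlier results of these data known. Counts were rounded, filtered (filterByExpr), TMM scaled and tested with edgeR 4.0.16 (quasi-likelihood, R 4.3.3) over 12340 genes with Benjamini-Hochberg adjustment and a threshold of 0.05. Depth of 15.6 to 18.6 megareads puts 3 reads at 0.161 to 0.193 CPM. FPKM were used for levels between genes. Alternatives were DESeq2 1.42.0 and its size factors, limma 3.58.1 on counts and on log2(FPKM + 1), other filters, a replicate block and left-out libraries. The scripts were tested on simulated data, with the same dispersion for all genes. There 12% of genes changed 1.25-fold and 75.5% of those changed 1.5-fold were called, and so were 10 unchanged genes. A member that did not pass may thus still differ by a small fold. Replicates differed beyond sampling noise (chi-square per degree of freedom 8.97 to 35.1). Another 16 per-sample columns were not used.

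Named genes are the members, Eaf2, in each pathway list and among the neighbours those past the threshold (at most 4 per direction by p) and the one with the highest mean, in each marker list the most abundant and the 2 with the smallest p, and the 3 genes most like each member (at least 5 CPM on average, log2 CPM with 0.1 added). Lck, Ptpn11, Inpp5d, Zbtb16, Klra8, Klra4, Ncr1, Irf4, Jchain, Mzb1, Eif2s3y, Slamf8, Slamf9 and Sh2d1b2 were named outside that rule, with their values seen. Motifs were also searched with results known. One neighbour and one gene most like a member are not reported here.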

Additional observations from a re-analysis of the deposited data

Results flagged for a closer look

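Of 66 groups of 4 libraries scanned, 6 held 1 library far from the other 3, measured as its gap to the nearest library divided by the group's range and set against Dixon's 95% critical value. Chance flags about 1 in 20 such groups. Faslpr replicate 1 had the highest Slamf7 level of its group, 1523 CPM against 1382 CPM for the next library, a gap of 0.886 of the range, and it is one of the libraries without which Slamf7 did not pass (adjusted p = 0.0553 by edgeR). EAF2Faslpr replicate 3 had the highest Sh2d1a level, 143 against 132 CPM (0.932 of the range).

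EAF2Faslpr replicate 1 had the lowest ratio of Slamf7 to Cd3e per length, 0.668 against 0.854 for the next library (0.855 of the range). The same library had the lowest ratio of Cd48 to Cd2, 4.11 against 6.90 (0.916 of the range), and the highest Cd2 level, 62.9 CPM. EAF2Faslpr replicate 3 had the highest summed B cell markers, 719.98 against 404 CPM (0.9 of the range), and the highest summed neutrophil markers, 99.9 against 18.6 CPM (0.929 of the range). Without that library Slamf7 had an adjusted p of 0.0537 by edgeR.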

How the results depend on the processing

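Slamf7 kept its direction under all 16 alternatives and passed in 13. The number of members called higher was 0, and 1 (Cd244a) by DESeq2 and without both replicates numbered 4, where its log2 fold change was 1.52. Leaving out each library in turn gave 0 to 1 higher (1 without Faslpr replicate 4) and 0 to 1 lower (0 without EAF2Faslpr replicate 3 or Faslpr replicate 1). With the replicate number as a block, 0 members were called lower (Slamf7 adjusted p = 0.0544) and 1425 genes in place of 1493. Same-numbered libraries correlated at 0.127, 0.169, 0.0637 and −0.05 in their deviations. Faslpr replicates 1, 2 and 3 correlated best with their own number, and Faslpr replicate 4 with EAF2Faslpr replicate 3 (0.163). EAF2Faslpr replicates 1 and 2 also correlated best with their own number, and replicates 3 and 4 did not. Since these values were low and the labels name no pairing, the numbers were not taken to pair the libraries. Cd84 changed sign, to −0.027 without both replicates numbered 4 and within a range of −0.011 to 0.16 over left-out libraries, its lowest being without Faslpr replicate 4, as did Cd48 (0.016 without both), and neither passed in any fit. Signalling partners called ranged from 2 to 3 and locus neighbours from 2 to 4 over left-out libraries. Genes called fell to 990 without Faslpr replicate 2. The order of the 9 levels per length was kept by count per effective length. That length was itself taken from the deposited counts and FPKM, so this was not an independent check of the order. Eaf2 passed in all 16. Sh2d1b1 was too low to test at this depth.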
